A study of Mus musculus with 2 samples.

Results

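The genes of the cytosolic ribosomal proteins were followed in salivary gland epithelial cells from young and aged mice. Members were all gene names on the array that have the form of a ribosomal protein symbol (Rpl, Rps or Rplp and a number), without pseudogenes and without the Rps6k kinases. The array held 85 such genes, 53 of the large and 32 of the small subunit, with 187 probes, among 36866 gene names in all. Epithelial cells were collected from submandibular glands with magnetic beads against EpCAM, a surface protein of epithelial cells. The mice were females labelled C57BL/6, which the study's methods give as C57BL/6N, and RNA of the sorted cells was labelled with Cy3 and hybridized to Agilent oligonucleotide arrays. The young group was 9 weeks and the aged group 24 months of age, the labels name no allele or agent for either group, and the design states a number of 1 for each age, with 1 array, without saying whether that RNA came from a single mouse or a pool. No difference therefore has a replicate check, no test between the ages was made, and values describe these 2 arrays. According to the study's methods, young mice came from a commercial breeder and aged mice from an institute's own facility, so age and source of the mice cannot be told apart. The epithelial label was checked on Epcam itself, with a signal of 1778 in the young and 1573 in the aged sample, and on the acinar water channel Aqp5, with 39817 and 43188.

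Ribosomal proteins assemble with ribosomal RNA into the small subunit, which reads the messenger RNA, and the large subunit, which joins the amino acids. Their messengers are among the most abundant of any cell, encode proteins needed in near equal numbers, and begin with a run of pyrimidines (a terminal oligopyrimidine, or TOP, tract) through which growth signals adjust their translation. Acinar cells of salivary glands, which secrete large amounts of protein, depend on a large supply of ribosomes.

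Of the 85 genes, 82 had a probe that the scanner software marked as well above background, called measured here, in 1 of the arrays or more, and 81 on both arrays. Each gene is given by its brightest such probe, as the log2 of its signal relative to the 75th percentile of the array, which was 256 in the young and 198 in the aged sample. On this scale the 82 genes had a median difference of 0.65, aged minus young, against 0.057 for the 21284 genes with a measured probe, and the gap between these medians was 0.60, or 1.51-fold. The members' median was above the difference of 91.9% of all genes. By 2-fold, 0 of the 82 members were higher on the aged array, where 2.53% of all genes were, and 1, Rpl3l, was lower, where 5.14% of all genes were. Of the 81 genes measured on both arrays, 80 had a difference above 0 (98.8%), as did 59.9% of all genes measured on both. Under the quantile and loess scalings described below, 67 and 66 of the 82 members were above 0. The share of all genes above 0 was not counted under those 2 scalings. Relative to the 75th percentile, 74 of the 81 had a difference of at least 0.5 (91.4%), against 13.8% of all genes. Apart from Rpl3l and Rps4l, the differences on this scale were thus small, in 1 direction and close together. In RNA of sorted cells, fewer cells of a type and less RNA per cell cannot be told apart. Without the 8 paralogs described below, 76 members were measured on both arrays, with a median of 0.66 and a standard deviation of 0.083 between genes. Before any scaling, the signal of each of these 76 was also higher on the aged array, by 1.02-fold to 1.41-fold with a median of 1.22-fold, while the 75th percentile of that array was lower. The 187 probes together took 6.81% of the summed signal of all probes in the young and 8.35% in the aged sample.

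Bright genes in general were higher on the aged array by this scaling. Among genes that are not ribosomal, the median difference was -0.024 at mean log2 levels from -2 to 0 and 0.42 at levels from 6 to 8. At mean levels from 6.13 to 8.31, a range that held 62 members, 446 other genes had a median difference of 0.42 and a standard deviation of 0.59, and 40.1% of them reached 0.5. The 62 members there had a median of 0.68 and a standard deviation of 0.088, and 91.9% reached 0.5. Scalings that depend on the signal level lowered the members' median to 0.11 (quantile) and 0.083 (loess), and left 67 and 66 of the 82 members above 0. The median of all genes was 0.0057 under quantile and -0.079 under loess. Leveling the arrays on spike-in controls gave 0.40, with 80 of 82 members above 0 and a median of all genes of -0.20. The share of all genes above 0 was not counted under these 3 scalings. The size of the shift of the whole group against the young array therefore depends on the scaling. Rps12 and Rpl12, first and second from the top here, took places 4 and 3 under quantile and 2 and 6 under loess, and Rps12 fell to place 78 of 82 when all measured probes of a gene were averaged, its other probe having a difference of -0.68. Of the members named below, the paralogs Rpl3l and Rps4l, below 0 here too, had differences below 0 under both quantile (-2.81 and -0.57) and loess (-3.02 and -0.64). Rpl10, Rpl13a, Rpl35a, Rpl36al, Rpl7, Rps27a and Rps3a1, above 0 here, were also below 0 under both, and among these 7 the lowest values were -0.15 for Rps3a1 under quantile and -0.21 for Rpl10 under loess. Rpl5, Rps9 and Rps27l were below 0 under quantile only, and Rpl4, Rpl10a, Rpl11, Rpl19 and Rplp1 under loess only. Across the 76 members, which share the arrays, the difference and the mean level had a Pearson correlation of 0.018 and a Spearman correlation of 0.040.

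**Figure D1:**
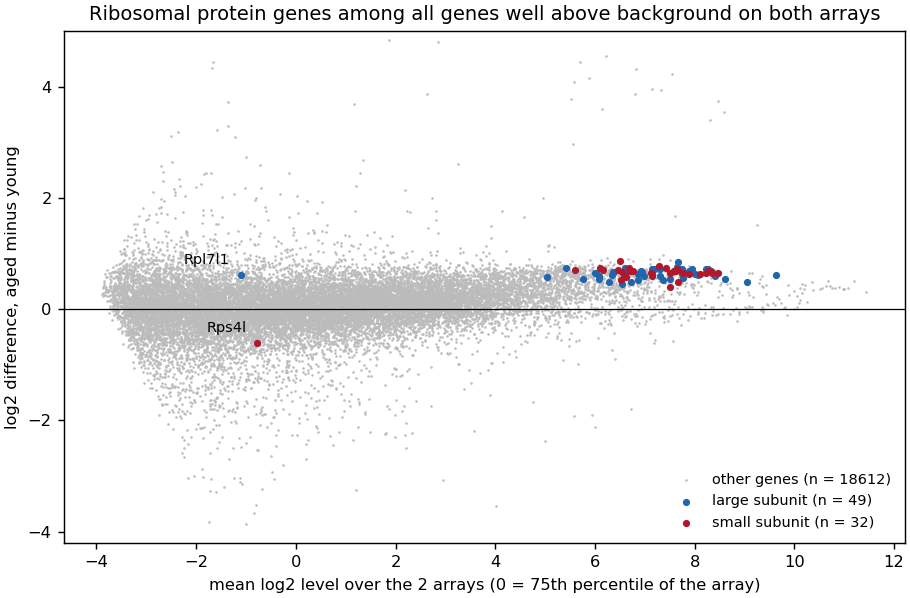
Each point is a gene measured on both arrays, with its mean log2 level over the 2 arrays on the x axis and its log2 difference, aged minus young, on the y axis. Large subunit genes (blue) and small subunit genes (red) form a narrow band between 0.41 and 0.87 at high signal, apart from Rps4l and the dim Rpl7l1, and the cloud of other genes (grey) also bends upward at high signal.

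In the small subunit, the median difference was 0.67, with the middle 50% of 32 genes between 0.63 and 0.70. Rps12, a small subunit protein known from cell competition in flies, had the highest difference of all members. Its signal was 17146 in the young and 24195 in the aged sample, a difference of 0.87 (1.83-fold). Rps15, whose protein lies near the decoding centre, had 33819 and 43870, a difference of 0.75 with a standard deviation of 0.030 over its 9 spots. Rps21 and Rps7 both had a difference of 0.74. These 4 genes lay above the middle 50% of the subunit. At the other end, Rps3a1, whose protein sits where the messenger RNA leaves the ribosome, had 40288 and 41232, a difference of 0.41 and the lowest of the members outside the paralogs. Rps27a, which is made as a fusion with ubiquitin, had 43667 and 47440, a difference of 0.49. Rps9, whose protein lines the messenger RNA entry, had a difference of 0.57 with a standard deviation of 0.033 over 10 spots. Rps6, the substrate of the S6 kinases and the usual readout of growth signalling, had 20935 and 25966, a difference of 0.68 with a standard deviation of 0.023 over 10 spots.

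In the large subunit, the median difference was 0.64, with the middle 50% of 49 genes between 0.58 and 0.70, beside 0.67 in the small subunit. The middle ranges of the subunits overlapped. Rpl12, which forms the base of the stalk where translation factors dock, was highest. Its signal was 38729 in the young and 53855 in the aged sample, with errors of 3873 and 5385 in the scanner software's error model, and a difference of 0.85 (1.80-fold). Rpl38, needed in mouse embryos for the translation of certain Hox messengers, had 39756 and 51830, a difference of 0.75. Rpl27a had a difference of 0.74 with a standard deviation of 0.069 over 10 spots. The lowest of the 49 genes, which are those measured on both arrays, was Rpl35a, with 20310 and 21545 and a difference of 0.46. Its human counterpart is mutated in a subset of cases of Diamond-Blackfan anaemia. Rpl10, which joins the subunit last, in the cytoplasm, had 114914 and 123936, a difference of 0.48. Rpl13a had a difference of 0.49 and Rpl10a of 0.52. The other large subunit genes measured on both arrays formed a continuous series from Rpl35a at 0.46 to Rpl38 at 0.75, and Rpl12 lay above it.

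**Figure D2:**
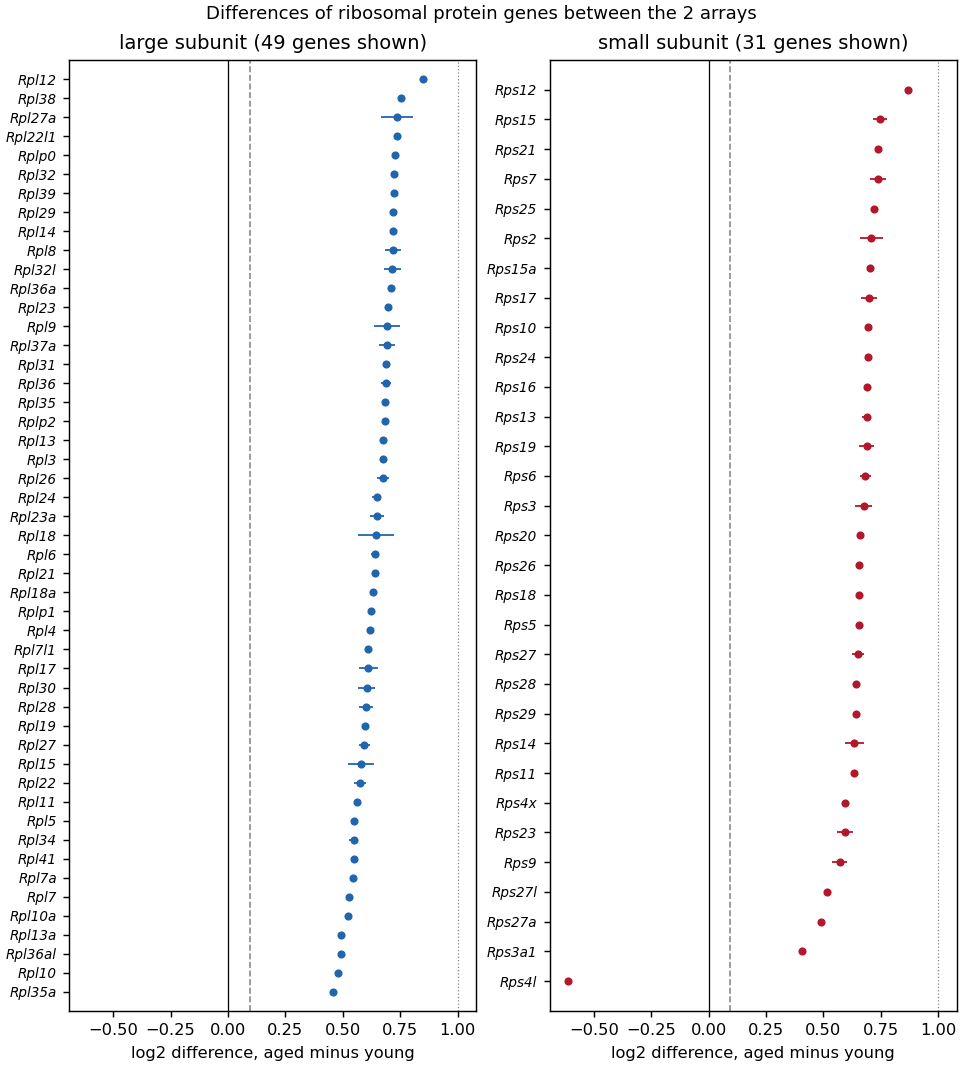
Log2 difference, aged minus young, of ribosomal protein genes measured on both arrays, ranked within the large subunit (left) and the small subunit (right). Bars are the standard deviation over repeated spots where a probe has 8 to 10 spots, the dashed line is the median of all genes and the dotted line is 2-fold. All genes shown but Rps4l lie between 0.41 and 0.87, to the left of the 2-fold line.

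Probes of Rps12 and Rpl12, at the high end of this order, and of Rpl10 and Rpl35a, near its low end, are given here. These oligonucleotides of 60 bases are what was measured. Capitals mark the run that a probe shares base for base with a measured probe of another name, and a probe with no run of 25 or more such bases is in lower case throughout.
Rps12: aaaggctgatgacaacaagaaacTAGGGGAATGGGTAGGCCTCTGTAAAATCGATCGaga
Rpl12, brightest probe: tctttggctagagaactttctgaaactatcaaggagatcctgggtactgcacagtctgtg
Rpl12, next probe: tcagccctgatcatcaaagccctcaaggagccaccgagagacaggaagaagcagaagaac
Rpl10: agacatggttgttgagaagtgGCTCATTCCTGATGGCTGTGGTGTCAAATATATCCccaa
Rpl35a: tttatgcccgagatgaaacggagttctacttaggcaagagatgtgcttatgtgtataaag
In the coordinates of the files (mm9), the Rps12 probe matches the reverse strand at chr10:23505428-23505711. The Rpl12 probes match the forward strand at chr2:32819082-32819298 and chr2:32818526-32818585, the Rpl10 probe the forward strand at chrX:71518307-71518366 and the Rpl35a probe the forward strand at chr16:33057562-33057621. The Rps12 probe and the brightest Rpl12 probe span 284 and 217 bases of the genome and thus cross from exon to exon, whereas the others lie within 1 exon. The capital run of 34 bases in the Rps12 probe is found in a probe for an Rps12 pseudogene, whose difference was 0.91. That of 35 bases in the Rpl10 probe is found in a probe named by a transcript identifier only, whose difference was 0.45.

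Repeated spots and separate probes gave the precision of these differences on the 2 arrays. The brightest probe of 30 members was printed in 8 to 10 usable spots, and its difference had a median standard deviation of 0.033 over the spots, with a range of 0.017 to 0.077. Between these 30 genes the standard deviation was 0.055. The brightest probes of Rps12, Rps21, Rps3a1, Rps27a, Rpl12, Rpl38, Rpl35a, Rpl10, Rpl13a and Rpl10a had 1 spot each, so the spot spread does not cover them. For 52 members, another probe matched to a RefSeq messenger RNA was measured on both arrays, and the brightest such probe was paired with the first. The median gap between the differences of such probe pairs was 0.035, and the largest was 0.15, for Rpl19. Some RefSeq probes outside these pairs lay further from the first, at 0.18 against 0.66 for Rps20 and 0.87 against 0.62 for Rplp1. Across the 52 genes, which are not independent replicates and share the same arrays and labelled RNA, the differences of the first and second probe had a Pearson correlation of 0.79 and a Spearman correlation of 0.72. Rps12, at the top of the order, had no second probe of this kind. Of the other members given above at the high ends that had one, the second probe had a difference of 0.96 for Rpl12, 0.74 for Rps15 and 0.72 for Rpl27a. At the low ends it was 0.52 for Rpl35a, 0.50 for Rps3a1 and 0.56 for Rps9. For Rpl10a, whose second probe was nearly as bright as the first, with 34082 against 35249 on the young array, it was 0.62, near the subunit median of 0.64 and above the 0.52 of the first. All 4 Rps3a1 probes lay between 0.41 and 0.52. These values cover the measurement alone, and the spread between animals is unknown.

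**Figure D3:**
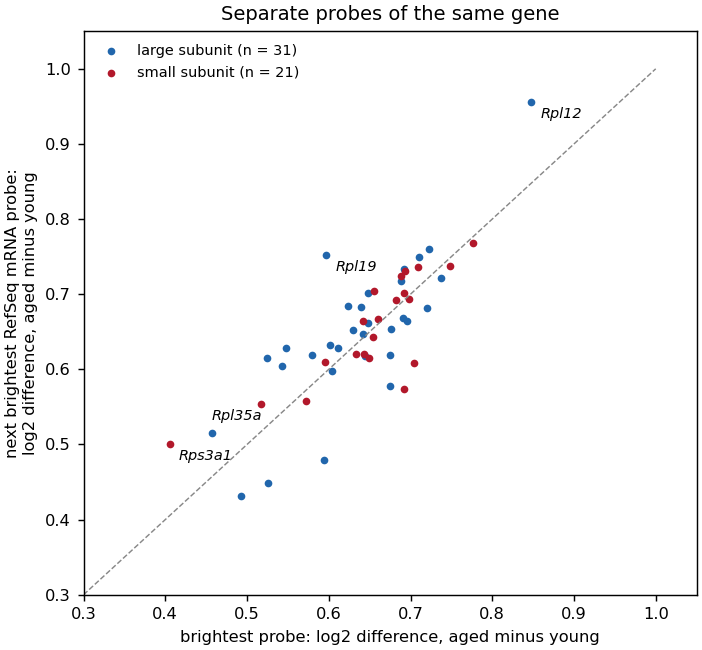
For 52 ribosomal protein genes, the log2 difference, aged minus young, of the brightest probe (x axis) is plotted against that of the next brightest probe matched to a RefSeq messenger RNA (y axis), with large subunit genes in blue and small subunit genes in red. The dashed line marks equal values. Rpl12 is high and Rps3a1 and Rpl35a are low by both probes, and Rpl19 has the largest gap.

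Probes of the same gene did not all agree. Of the 60 members with several measured probes, 4 had probes whose differences lay more than 1 apart, and in each the deviating probe was dim. For Rps12, the other probe had a signal of 57.6 in the young and 27.7 in the aged sample, a difference of -0.68. The dim Rps4x probe had 56.0 and 27.5, a difference of -0.65. For Rpl26, a dim probe gave 69.9 on the young array and was not measured on the aged array, at least 3.47-fold lower, while the brightest Rpl26 probe had a difference of 0.67. The dim Rps15a probe was likewise measured on the young array only, at least 1.82-fold lower, against 0.70 for the brightest. Over the 70 other probes matched to a RefSeq messenger RNA and measured on both arrays, the median difference was 0.65 with 0 below 0, and over the 25 without such a match it was 0.45 with 4 below 0.

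Many ribosomal protein genes have processed copies in the genome with nearly the same sequence, and signals of the gene and its copies cannot be told apart where a probe fits both. The array carried 91 probes for other names that its annotation describes as ribosomal protein pseudogenes, of which 86 were measured on both arrays, with a median difference of 0.68 and 83 of them above 0. The 6 probes for Rps12 pseudogenes had differences of 0.71 to 0.91, near the 0.87 of Rps12, and the probe for an Rpl12 pseudogene had 0.88. In contrast, 2 Rpl35a pseudogene probes had 0.52 and 0.55 and the Rpl10 pseudogene probe had 0.51. The Rpl13-ps6 probe, at a signal of 54.4 in the young and 18.7 in the aged sample, had a difference of -1.17. For Rps29 and Rps27, the files place the brightest probe on another chromosome than the gene, so these values in particular (differences of 0.64 and 0.65) may come from a copy. Leaving out the 23 members whose brightest probe shares 25 or more bases with a measured probe of another name, a choice made after the data had been seen, left the median at 0.65.

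The acidic stalk of the large subunit, which recruits the elongation factors, is built from Rplp0 and copies of Rplp1 and Rplp2. Rplp0 had a signal of 61318 in the young and 78470 in the aged sample, a difference of 0.73. Rplp1, with 164686 and 195997, had a difference of 0.62, and Rplp2, with 63596 and 78831, one of 0.68. Rpl5 and Rpl11, which enter the ribosome together with the 5S RNA and otherwise restrain Mdm2, an inhibitor of p53, had differences of 0.55 and 0.56. Both were below the large subunit median of 0.64. Of the proteins that line the exit tunnel of the nascent chain, Rpl4 had 0.62, Rpl17 0.61 and Rpl39 0.72. Proteins with a counterpart in bacteria and archaea and those specific to eukaryotes did not separate, with medians of 0.66 over 32 genes and 0.67 over 44 genes.

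Most vertebrate ribosomal proteins are encoded by a single functional gene, but some have a paralog with restricted expression. Rpl3l, a paralog of Rpl3 known from heart and skeletal muscle, had a signal of 56.6 on the young array. It was not measured on the aged array, which makes it at least 3.07-fold lower there. With another background correction (normexp, offset 50) its difference was -0.44, less than 2-fold. Rpl3 itself had 25130 and 31011, a difference of 0.68.
Rpl3l: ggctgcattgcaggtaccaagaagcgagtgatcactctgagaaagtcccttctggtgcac
Rpl3: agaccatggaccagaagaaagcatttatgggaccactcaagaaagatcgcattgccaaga
The probes lie on the forward strand of mm9 at chr17:24872413-24872681 and on the reverse strand at chr15:79908295-79908445, and both cross from exon to exon. Rps4l, annotated in the files as a non-coding RNA, had 186 in the young and 93.9 in the aged sample and a difference of -0.61, against 0.60 for its parent Rps4x. Apart from Rpl3l it was the sole measured member with a value below 0 on this scale. Rpl7l1 was also dim, with 96.2 and 114 and a difference of 0.61, beside 0.53 for Rpl7. The other measured paralogs were bright. Rpl22l1, which can take the place of Rpl22 in the ribosome, had 8549 and 11006 and a difference of 0.74, against 0.57 for Rpl22. Rpl36al had 0.49 and Rpl36a 0.71, and Rps27l had 0.52 and Rps27 0.65. Rpl10l and Rpl39l, both known from the testis, were measured on neither array, and neither was the only probe of Rpl37, at 10.8 and 5.67, so these 3 genes have no difference.

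The annotated start of transcription was examined for the pyrimidine tract, using RefSeq promoters (GRCm38.p6), which were matched for 64 of the 85 members. A C followed by 4 or more pyrimidines stood exactly at an annotated start in 14 of the 64 (21.9%), against 2.67% of 17492 protein-coding genes with a promoter. Windows from 30 bases before to 20 bases after the start are shown for the lowest and the highest member of these 14 and for Rps6, with the tract in capitals.
Rpl35a: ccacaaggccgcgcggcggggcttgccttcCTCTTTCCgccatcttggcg
Rps6: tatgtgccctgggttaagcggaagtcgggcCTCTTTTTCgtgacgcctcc
Rpl38: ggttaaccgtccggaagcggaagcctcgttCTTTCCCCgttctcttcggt
The windows are chr16:33056452-33056501 on the forward strand, chr4:86857348-86857397 on the reverse strand and chr11:114668550-114668599 on the forward strand. Members with such a start had a median difference of 0.68, from 0.46 to 0.75, and 42 others had 0.67, from 0.41 to 0.87, so the first range lay within the second. Messengers of ribosomal proteins in general begin with such a tract, and the annotated start can lie beside the one used. The split therefore cannot compare messengers with and without a tract. The 7 paralogs with a promoter and Rpl37, which was measured on neither array, were left out of these medians. In the 300 bases around the start, on both strands, the ETS-like motif CCGGAAG was found in 25 of the 64 members (39.1%) and in 12.9% of all genes. The YY1-like motif AAGATGGCG was found in 4 (6.25%) against 2.14%, the GC box GGGCGG in 39 (60.9%) against 49.2%, and the TATA box TATAAA in 8 (12.5%) against 14.8%. These are matches of letters and not binding sites.

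Further cytosolic ribosomal components whose names do not have the form used here were close to the members. Other parts of the translation apparatus had lower medians on this scale, and also lower signals, at which other genes have lower differences too. Of the former, Rpsa had a difference of 0.73, Fau 0.60 and the scaffold Rack1 0.50. The 77 mitochondrial ribosomal protein genes had a median of 0.33, with 73 above 0, 0 higher by 2-fold and 1 lower by 2-fold. The highest was Mrpl23 at 0.73 and the lowest Mrpl50, with a signal of 213 in the young and 76.1 in the aged sample, at -1.11. Among 45 translation factors the median was 0.37 and none passed 2-fold in either direction. The elongation factor subunit Eef1g, with 14746 and 18478, was highest at 0.70, and the poly(A) binding protein Pabpc1, with 46429 and 30603, was lowest at -0.23. Other messengers known to carry a TOP tract, 17 genes that include some of these factors, had a median of 0.34, from 0.70 for Eef1g to -1.75 for Vim, a gene of mesenchymal cells.

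For 43 genes of ribosome biogenesis measured on both arrays, the median was 0.21, with 38 above 0 and 1 at least 2-fold higher. That gene was Taf1c, a subunit of the factor that brings RNA polymerase I to the ribosomal DNA, with a signal of 99.3 in the young and 234 in the aged sample and a difference of 1.61. The lowest was Taf1b, another subunit of the same factor, at -0.26. The rRNA methyltransferase gene Fbl had 0.21 and the nucleolin gene Ncl 0.16. For 20 genes of signalling to the ribosome, the median was 0.11 with 13 above 0 and none past 2-fold, from 0.45 for the translation repressor Eif4ebp1 to -0.47 for the amino acid sensor kinase Eif2ak4. Mtor had 0.021 and the S6 kinase gene Rps6kb1 0.083. Over all genes measured on both arrays the median was 0.094. The order of these lists depended on the scaling. Quantile and loess scaling were planned for the ribosomal protein genes of the cytosol, and their use on the other lists was chosen after the data had been seen. The ribosomal proteins of the cytosol had 0.11 under quantile and 0.085 under loess, and those of mitochondria 0.17 and 0.096. Medians were 0.019 and -0.0021 for translation factors, -0.079 and -0.061 for other TOP messengers, 0.10 and 0.027 for ribosome biogenesis and -0.085 and -0.094 for signalling.

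**Figure D4:**
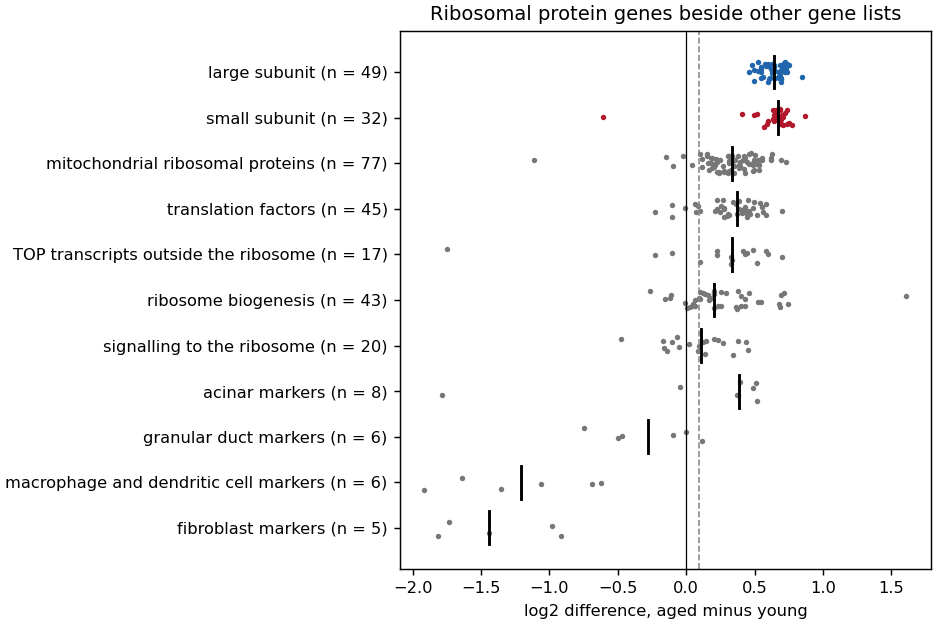
Log2 difference, aged minus young, of each gene measured on both arrays in 11 gene lists, with the list's median as a vertical bar and the median of all genes as a dashed line. On this scale, ribosomal protein genes of both subunits cluster around medians of 0.64 and 0.67 and mitochondrial ribosomal proteins and translation factors around 0.33 and 0.37, an order that quantile and loess scaling do not keep, and macrophage and fibroblast markers lie below 0.

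Markers of other cells that a bead sort can carry along differed between the arrays. Of 6 macrophage and dendritic cell markers on the array, all 6 were lower on the aged array, 4 of them at least 2-fold, with a median of -1.21. The brightest, the lysozyme gene Lyz2, had a signal of 23810 in the young and 4884 in the aged sample, and the 6 signals summed to 35177 and 10129. All 6 fibroblast markers were lower too, 4 of them at least 2-fold, with a median of -1.44 over the 5 measured on both arrays, whose signals summed to 4726 and 1708. The brightest of these was Dcn, with 3475 and 1360. Of 6 endothelial markers, 5 were lower on the aged array and Pecam1, at 0.10, was higher on this scale. The median was -0.56 over the 5 endothelial markers measured on both arrays, with summed signals of 1510 and 810. Of the B cell markers, Cd79a was measured on neither array and Cd79b had 146 and 25.5. Among plasma cell markers, Mzb1 and Tnfrsf17 were not measured and Jchain had 615 and 138. Of the T cell markers, Cd8a was measured on neither array and Cd3g was at least 2.06-fold lower, since it was measured on the young array only. Cd3e, with 999 and 1142, had a difference of 0.56, Cd3d 0.62, Cd4 0.051 and Lck -0.066. The median of 4 erythroid markers was 0.25. Within the epithelium, the median over 8 acinar markers was 0.38 with 1 at least 2-fold lower, Smgc at -1.79. Over 6 basal and myoepithelial markers it was -0.025 with 2 at least 2-fold lower, Cnn1 at -2.14 and Myh11 at -1.83. Medians of -0.28 over 6 granular duct markers and 0.20 over 7 general epithelial markers were found, with 0 past 2-fold in either list. The part of these differences in the values of the ribosomal protein genes was not tested.

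**Figure D5:**
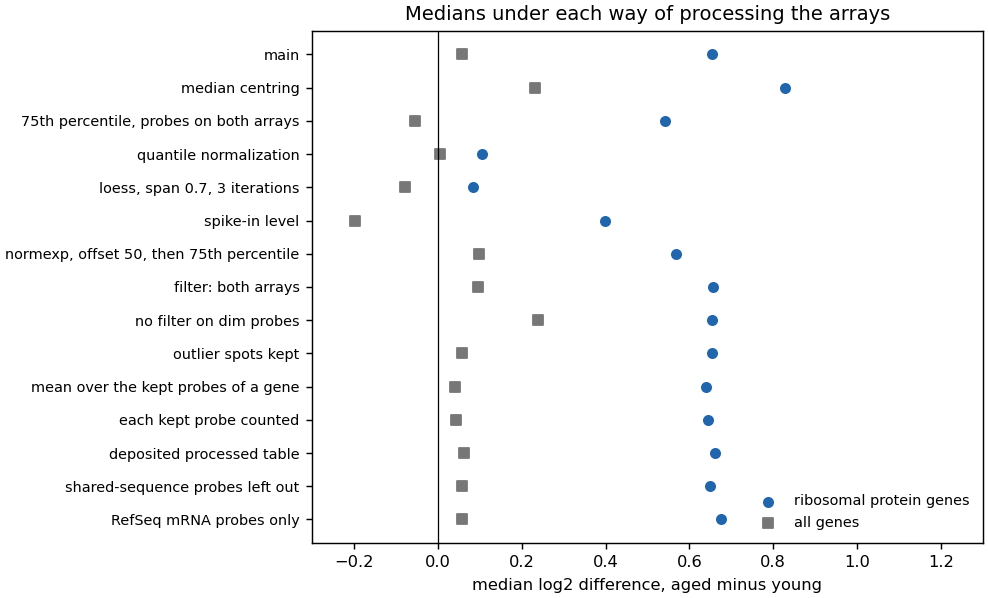
Median log2 difference, aged minus young, of the ribosomal protein genes (blue circles) and of all genes (grey squares) under the main processing (top) and 14 alternatives. The ribosomal protein median is above that of all genes in each, by 0.60 in the main processing, 0.16 with loess and 0.10 with quantile normalization.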

How the data were processed

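RNA of sorted epithelial cells was measured on 2 one-colour Agilent arrays. The deposited scanner files, made by the authors with Feature Extraction 12.0.3.1, give each spot's processed intensity after background subtraction and trend correction, its raw mean and local background intensity, an error of the processed intensity, and marks, deposited as a score of 0 or 1, for outliers, saturation and signal well above background. The authors' processed table, a ratio of the same intensities to 1 constant per array (229 and 176), served as an alternative. Of 59305 non-control spots, 32875 (55.4%) were well above background in the young and 30111 (50.8%) in the aged sample, and 0 spots were saturated.

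Log2 processed signals were taken minus log2 of each array's 75th percentile over its non-control spots. The methods of the study name the 75th percentile without saying over which spots, and the constants of the authors' table lie near that over all spots, controls included (229 and 176, against 256 and 198 here). Outlier spots of either array were dropped from both, repeated spots were averaged, and a gene was represented by its brightest probe among those marked well above background in 1 or both arrays. For a probe dim on 1 array, the bright value was set against the higher of that array's lowest signal well above background (14.1 young, 14.3 aged) and the probe's own value, which gives an "at least" fold.

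Members, gene lists and thresholds were chosen with earlier results of these data known. Members named are those past 2-fold or dim on 1 array, the 5 highest and 5 lowest in each subunit, paralogs and their parents, stalk, 5S particle and tunnel proteins, Rps6, Rps27a, and members whose probes lay over 1 log2 unit apart. Some items that these choices take in are not reported here. Gene names are those of the files. RefSeq tables (GRCm38.p6) gave promoters and the chromosome of each gene. Alternatives covered the scaling, background correction, filter, outliers, choice of probe and starting values. Steps were tested on simulated data. R 4.3.3 with limma 3.58.1, Python 3.11.15, numpy 2.4.6, pandas 2.3.3 and matplotlib 3.10.9 were used.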

Additional observations from a re-analysis of the deposited data

How the results depend on the processing

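With 1 array per age, the number of arrays limits the precision, and a change of a median by more than 0.033, the median standard deviation over repeated spots, was taken as a move. No paired analysis was possible because each group holds 1 array. The median difference of the ribosomal protein genes (0.65) was 0.83 with median centring, 0.54 with the 75th percentile taken over measured probes, 0.11 with quantile normalization, 0.083 with loess, 0.40 with the arrays level on 8 spike-in (E1A) control probes and 0.57 with normexp (offset 50). In the same order, the large subunit median (0.64) was 0.82, 0.53, 0.11, 0.088, 0.39 and 0.56, and the small subunit median (0.67) was 0.84, 0.56, 0.10, 0.080, 0.41 and 0.58. The gap to the median of all genes (0.60) was 0.10 with quantile normalization, 0.16 with loess, 0.47 with normexp, 0.56 for probes measured on both arrays and 0.42 with no filter. None of these medians and gaps changed sign. By construction, loess removes a fitted trend with signal and quantile normalization gives both arrays the same distribution of signals. For the other moves the cause was not tested. With median centring, 2 members, Rps12 and Rpl12, were at least 2-fold higher, in place of 0. That scaling also raised the median of all genes, from 0.057 to 0.23, and left the gap to it at 0.60. The share of all genes past 2-fold was not counted under it. The count at least 2-fold lower (1, Rpl3l) was 0 with normexp and for probes measured on both arrays, which leaves Rpl3l out, and 2 when each probe was counted. Rps12 had the highest difference under the main processing, but 0.094 when its bright and its dim probe were averaged. The same averaging gave -0.16 in place of 0.70 for Rps15a, 0.014 in place of 0.67 for Rpl26 and 0.18 in place of 0.60 for Rps4x. The alternatives on outliers, on the processed table and, added after the data had been seen, on shared sequence and RefSeq probes moved none of the medians by more than the spot spread.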

Other observations

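Ribosomal RNA is the other component of the ribosome, and values of its probes, chosen after they had been seen, belong to no comparison above. The probe for Rn18s had a signal of 643714 in the young and 613031 in the aged sample, a difference of 0.30 relative to the 75th percentile. The Rn28s1 probe had 262078 and 248766 and the same difference of 0.30. Whether the signals of these probes follow the amount of ribosomal RNA was not tested. Rpl37rt, a name outside the rule that is annotated as a retro copy of Rpl37, had 68096 and 77959 and a difference of 0.57, while the only probe named Rpl37 was not measured.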
